A study of Mus musculus with 20 samples.

Results

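The TGF-beta receptors and the SMAD proteins that carry their signal were followed through 20 RNA sequencing libraries of BV-2, a line of mouse microglia. The group holds 10 genes of the 55487 in the count table, taken as a named list: the ligand gene Tgfb1, the receptor genes Tgfbr1 and Tgfbr2, the SMAD genes Smad2, Smad3, Smad4 and Smad7, the ubiquitin ligase gene Smurf2 and the co-repressor genes Ski and Skil. All 10 were measured well enough to be tested, among 12799 genes tested in all. BV-2 is an immortalised line set up from mixed brain cultures of 1-week-old C57BL/6 mice, and every culture carried the wild-type genotype given in the labels. Young BV-2 microglia came from low passages, and aged BV-2 microglia were made by keeping the same line in culture for months. Each age was either left untreated or exposed to bacterial lipopolysaccharide (LPS), at 100 ng/ml for 6 hours. This gave 4 groups of 5 libraries, numbered in the labels by batches 1 to 5. The comparisons asked how the aged state altered the transcriptome at rest and how both ages answered an inflammatory stimulus. All libraries come from 1 cell line, so the replicates measure the spread between cultures and not between animals. The paper states that the aged cells were frozen after long-term culture and that aliquots served for later experiments. It does not say whether separate long-term cultures were kept. Comparisons of the ages may therefore not cover the spread between such cultures.

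TGF-beta1 is secreted in a latent form, and once released it brings the type II receptor (Tgfbr2) together with the type I receptor (Tgfbr1). The activated type I receptor phosphorylates Smad2 and Smad3, which bind the shared partner Smad4 and act in the nucleus. Smad7 and the ubiquitin ligase Smurf2 damp the signal at the receptor, and Ski and Skil (SnoN) repress the SMAD complexes on DNA. In the brain this pathway is known for sustaining the homeostatic state of microglia.

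To show the promoters of 1 ligand, 1 receptor and 1 SMAD gene whose transcripts moved with LPS, the 250 bases upstream of each RefSeq start on GRCm38.p6 are printed 5′ to 3′ on the strand of the gene, with capitals marking GC boxes (GGGCGG) and the CAGA motif that SMADs bind (CAGAC), each searched on both strands. Tgfb1 lies on the plus strand and its window is chr7:25686752-25687001. Tgfbr2 and Smad3 lie on the minus strand, with windows chr9:116175364-116175613 and chr9:63757995-63758244.
Tgfb1: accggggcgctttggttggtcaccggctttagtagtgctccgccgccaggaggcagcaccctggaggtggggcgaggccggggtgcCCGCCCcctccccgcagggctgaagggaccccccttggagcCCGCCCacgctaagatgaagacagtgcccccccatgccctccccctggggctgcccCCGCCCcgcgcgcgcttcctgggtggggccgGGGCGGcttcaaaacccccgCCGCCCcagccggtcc
Tgfbr2: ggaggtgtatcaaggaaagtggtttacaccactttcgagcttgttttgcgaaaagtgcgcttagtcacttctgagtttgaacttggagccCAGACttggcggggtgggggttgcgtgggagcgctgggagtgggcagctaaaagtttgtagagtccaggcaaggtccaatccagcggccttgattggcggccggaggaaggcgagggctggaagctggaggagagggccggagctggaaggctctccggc
Smad3: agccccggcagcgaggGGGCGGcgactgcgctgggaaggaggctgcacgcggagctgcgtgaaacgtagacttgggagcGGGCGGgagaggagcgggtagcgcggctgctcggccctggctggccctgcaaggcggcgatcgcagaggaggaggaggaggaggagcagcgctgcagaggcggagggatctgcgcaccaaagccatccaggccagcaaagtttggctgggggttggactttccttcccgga
The Tgfb1 window held 5 GC boxes and no CAGAC, the Smad3 window held 2 GC boxes and no CAGAC, and the Tgfbr2 window held 1 CAGAC and no GC box. Among all 32851 promoter windows of the same length, 42.2% held at least 1 CAGAC and 32.7% at least 1 GC box. The GC content was 75.2% for Tgfb1, 69.2% for Smad3 and 58.4% for Tgfbr2, against a median of 52.4% over all windows. These matches describe the letters only.

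Total counts per library ranged from 11371508 to 16829292. Values are given as CPM, which relates the counts of a gene to the library size after TMM scaling. The summed level of 8 myeloid markers was 2475 to 3507 CPM in young untreated, 2123 to 2976 CPM in aged untreated, 2958 to 4058 CPM in young LPS and 2573 to 3537 CPM in aged LPS cultures, while markers of astrocytes, neurons, oligodendrocytes, endothelial cells and fibroblasts summed to at most 1.78 CPM. Among 8 microglial identity markers, Sall1 and Siglech had no count in any library, and P2ry12, a purinergic receptor of homeostatic microglia, was at 1.18 ± 0.569 CPM (SD, n = 5) in young untreated cultures. The summed identity markers ranged from 313 to 504 CPM in young untreated, 284 to 449 CPM in aged untreated, 254 to 440 CPM in young LPS and 234 to 387 CPM in aged LPS cultures. Scaling by total counts in place of TMM moved the median of all genes to -0.23 in the young LPS response and to -0.16 in the aged one, so changes are read relative to the bulk of genes. Under that scaling higher calls made up 27.3% of all calls against 48.2% under TMM in the young LPS response, and 28.4% against 50.6% in the aged one. They made up 70.1% against 48.3% between aged and young LPS cultures, and 81.3% against 64.4% for the difference of the LPS responses.

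Levels between genes were compared per kilobase of exon (RPKM, from the TMM-scaled CPM). In young untreated cultures Tgfb1 stood highest at 46.7 ± 1.000 RPKM (SD, n = 5), followed by Ski at 19.3 ± 2.00, Smad4 at 15.9 ± 0.421 and Skil at 10.6 ± 1.30 RPKM, with no overlap of libraries between these neighbours. Both receptor genes, Smurf2 and Smad2 lay together: the mean RPKM was 7.50 ± 0.646 for Tgfbr2, 6.99 ± 0.438 for Tgfbr1, 6.96 ± 0.582 for Smurf2 and 6.21 ± 0.179 for Smad2, and neighbours in this order overlapped. Smad3 at 4.26 ± 0.312 and Smad7 at 3.88 ± 0.475 RPKM were lowest and overlapped. The order changed with LPS. In young cells Smad2 moved from rank 8 to rank 5, at 7.25 ± 0.323 RPKM and apart from Smurf2 below it, and Tgfbr2 from rank 5 to rank 8, at 4.74 ± 0.427 RPKM and apart from Tgfbr1 above it. In young LPS cultures Ski, at 10.8 ± 1.02 RPKM, lay below Smad4 at 14.8 ± 1.37 RPKM without overlap, and Smad3 was last at 1.67 ± 0.306 RPKM, apart from Smad7 at 2.96 ± 0.516 RPKM. In aged LPS cultures Smad3 at 2.36 ± 0.372 and Smad7 at 2.13 ± 0.390 RPKM overlapped again. Of the other ligands, Tgfb2 reached at most 6 counts in a library and Tgfb3 at most 1, so Tgfb1 was the only TGF-beta isoform gene that could be tested.

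**Figure D1:**
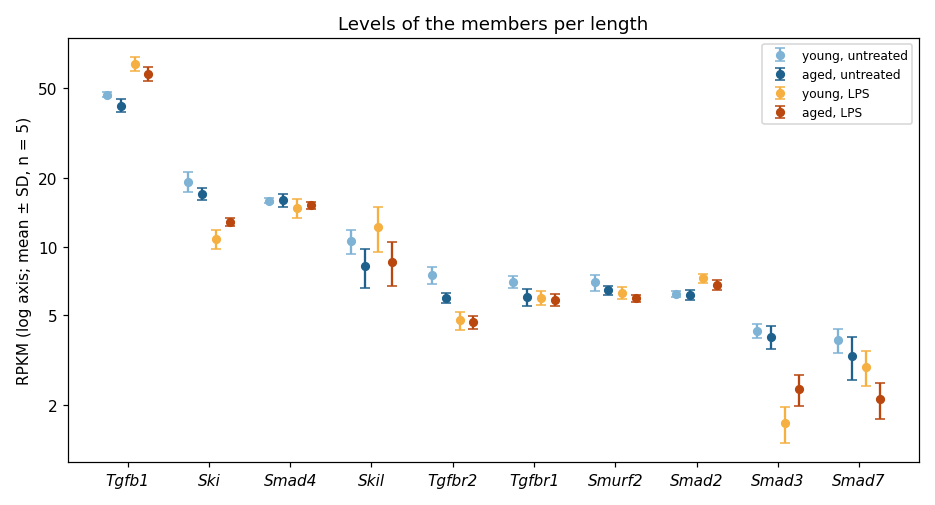
Mean level of each of the 10 genes per kilobase of exon (RPKM, log axis) in the 4 groups, with bars for the SD over 5 cultures. Tgfb1 stands above all other members in every group, and Smad3 drops from 4.26 to 1.67 RPKM with LPS in young cells.

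The first question was how LPS altered the pathway in young BV-2 microglia. Tgfb1 and Smad2 rose and 6 members fell: Tgfbr1, Tgfbr2, Smad3, Smad7, Smurf2 and Ski. The rise of Smad2 was not called under total counts. The largest change was the fall of Smad3 to 0.395 times its untreated level, and Smad4 and Skil were not called. LPS moved most genes in these cells, so that 8 of 10 members called stands beside 64.6% of all genes tested called in either direction, 31.2% higher and 33.5% lower. The members had a median log2 fold change of -0.19, against -0.01 for all genes tested. In bulk RNA, fewer cells with a transcript and less of it per cell cannot be told apart.

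In aged BV-2 microglia LPS again raised Tgfb1 and Smad2, and it lowered Tgfbr2, Smad3, Smad7 and Ski. The rise of Smad2 was again not called under total counts. The 6 members called stand beside 54.4% of all genes tested, 27.5% called higher and 26.9% lower. Under total counts 1 member was called higher and 7 lower at each age. Of the 12799 genes tested, that scaling called 2407 higher and 6401 lower in young and 2172 higher and 5476 lower in aged cells. The aged response had a median of -0.10 for members and 0.0005 over all genes. The LPS response itself differed between the ages for Smad3 and Ski, both of which fell less in aged cells. These 2 members, both with a higher difference, stand beside 6.39% of all genes called for this difference, 4.12% higher and 2.27% lower, and the median difference was 0.04 over the members and 0.02 over all genes.

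**Figure D2:**
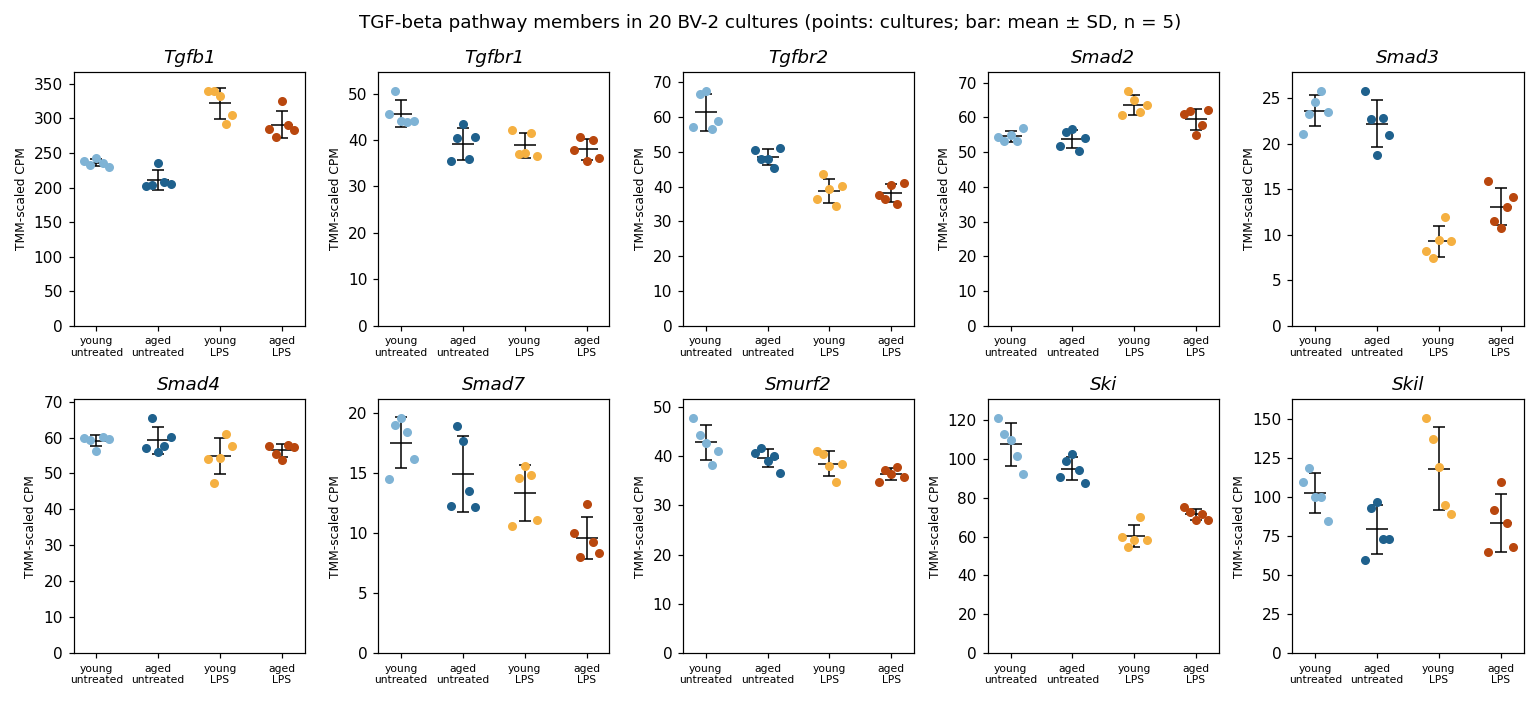
TMM-scaled CPM of each member in every culture (points), with mean ± SD (n = 5) for the young untreated, aged untreated, young LPS and aged LPS groups. The LPS-treated cultures lie above the untreated ones for Tgfb1 and below them for Tgfbr2, Smad3 and Ski, without overlap at either age.

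Tgfb1 encodes the ligand. Its level was 238, 233, 242, 235 and 229 CPM in young untreated cultures of batches 1 to 5 and 340, 340, 333, 291 and 305 CPM in young LPS cultures. In aged cells it was 202, 203, 236, 208 and 206 CPM untreated and 285, 273, 325, 290 and 283 CPM with LPS. Every LPS culture was above every untreated one of its age. The log2 fold change was 0.45, SE 0.05, adjusted p = 2.05e-07 in young cells and 0.47, SE 0.05, adjusted p = 2.07e-07 in aged cells, a rise to 1.37 and 1.38 times. Within batches it rose in 5 of 5 pairs at both ages. The responses differed by 0.02 on the log2 scale (95% interval -0.14 to 0.17, adjusted p = 0.955).

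Tgfbr2, the type II receptor gene that binds the ligand, fell at both ages. Its level was 57.2, 66.5, 67.6, 56.6 and 58.8 CPM in young untreated and 36.5, 43.5, 39.4, 34.5 and 40.1 CPM in young LPS cultures. In aged cells it was 50.6, 48.0, 47.8, 45.5 and 51.3 CPM untreated and 37.6, 36.5, 40.6, 35.1 and 40.9 CPM with LPS. The untreated and treated cultures did not overlap at either age, and the treated cultures of both ages lay in the same range. The log2 fold change was -0.66, SE 0.07, adjusted p = 1.39e-08 in young cells and -0.35, SE 0.07, adjusted p = 1.57e-04 in aged cells. The difference between the responses was 0.31, SE 0.10, adjusted p = 0.0544, positive within 5 of 5 batches (0.22 to 0.54). With the batch as a block it was called (adjusted p = 0.0181), as it was with DESeq2 (adjusted p = 0.0451), with total counts (0.0160) and without young LPS replicate 2, young untreated replicate 1 or young untreated replicate 4 (adjusted p = 0.0324, 0.0448 and 0.0433).

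Tgfbr1, the type I receptor gene, fell in young cells from 45.6, 50.6, 44.0, 44.0 and 44.1 CPM to 42.2, 37.1, 37.2, 41.5 and 36.5 CPM, with no overlap (-0.23, SE 0.07, adjusted p = 0.00367). Aged cultures stood at 35.5, 40.4, 43.4, 35.9 and 40.6 CPM untreated and 37.9, 40.7, 35.4, 40.0 and 36.2 CPM with LPS. These aged groups overlapped, and the log2 fold change was -0.04, SE 0.07, adjusted p = 0.609, with 3 of 5 batches above 0. Under total counts it was called lower (-0.20, adjusted p = 0.0117). The difference between the responses was 0.19, SE 0.09, and was not called (adjusted p = 0.267).

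The receptor-regulated SMADs parted: Smad3 fell, and Smad2 rose under TMM but not under total counts (values below). Smad3 was at 21.0, 23.3, 24.5, 25.7 and 23.5 CPM in young untreated and 8.20, 7.47, 9.45, 11.9 and 9.28 CPM in young LPS cultures. In aged cells it was at 25.8, 22.7, 18.8, 22.8 and 20.9 CPM untreated and 15.9, 11.5, 10.8, 13.1 and 14.2 CPM with LPS. All treated cultures were below all untreated ones of both ages, and the treated groups of the 2 ages overlapped. Smad3 had a log2 fold change of -1.34, SE 0.12, adjusted p = 1.07e-09 in young cells and -0.76, SE 0.11, adjusted p = 5.78e-06 in aged cells. The response was smaller in aged cells by 0.58, SE 0.16, adjusted p = 0.0347, with the same sign in 5 of 5 batches (0.30 to 0.77). This call is close to the threshold: with 1 library left out it was held only without aged LPS replicate 2 or 3, aged untreated replicate 1, young LPS replicate 4 or young untreated replicate 1 or 5, and without any of the other 14 libraries the adjusted p lay between 0.0502 and 0.0790. The difference itself stayed between 0.50 and 0.69 on the log2 scale.

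Smad2, the other receptor-regulated SMAD gene, ranged from 53.1 to 56.9 CPM in young untreated and 60.6 to 67.7 CPM in young LPS cultures, and from 50.4 to 56.8 CPM and 54.9 to 62.0 CPM in the aged ones. The young groups did not overlap and the aged ones did. The log2 fold change was 0.22, SE 0.05, adjusted p = 3.13e-04 in young and 0.15, SE 0.05, adjusted p = 0.0130 in aged cells. Under total counts these values were 0.0032 and -0.0132, beside medians of -0.23 and -0.16 over all genes, and neither was called. The aged call was also lost with no filter on low counts (adjusted p = 0.133). Smad4, the shared partner, ranged from 56.4 to 60.3 CPM in young untreated and 47.4 to 61.0 CPM in young LPS cultures, and from 55.9 to 65.5 and 53.7 to 58.1 CPM in the aged ones, with overlap at both ages. Its log2 fold change was -0.11, SE 0.06, adjusted p = 0.110 in young and -0.07, SE 0.06, adjusted p = 0.321 in aged cells, called under total counts (-0.33, adjusted p = 5.92e-05, and -0.23, adjusted p = 0.00246) and, in young cells, without young LPS replicate 4 (-0.15, adjusted p = 0.0287).

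**Figure D3:**
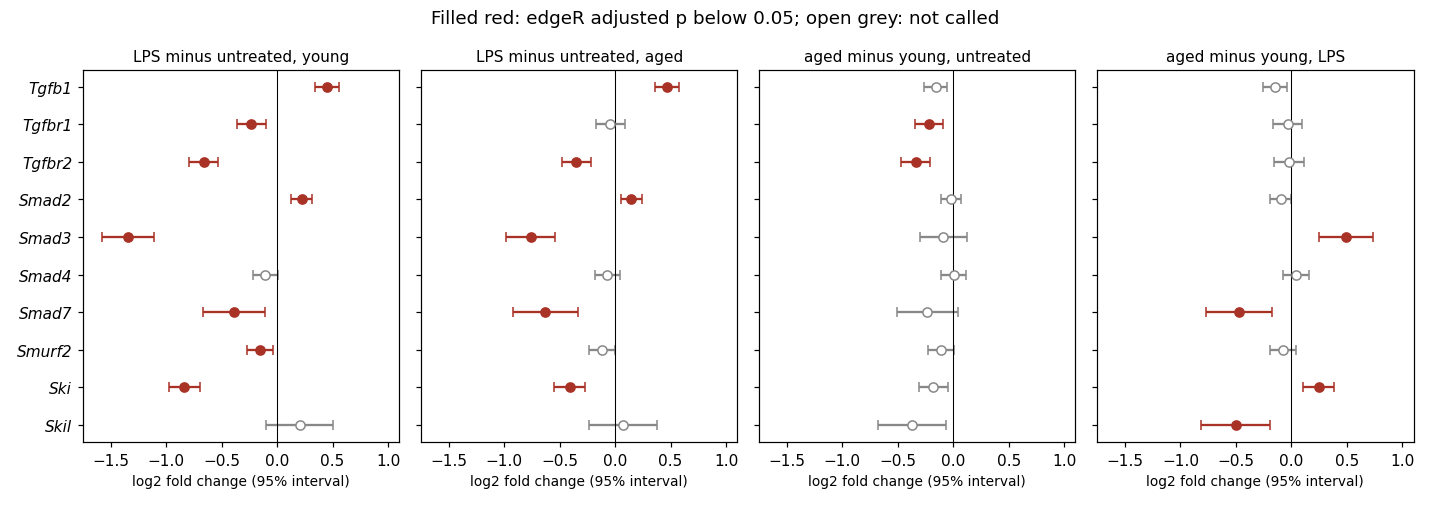
Log2 fold changes of the 10 members with 95% intervals in the LPS responses of young and aged cells and between aged and young cells, untreated and with LPS. Filled red points passed an edgeR adjusted p of 0.05. Smad3 and Ski lie left of 0 in both LPS responses and right of 0 between aged and young LPS cultures.

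Smad7 is the inhibitory SMAD that blocks the type I receptor. It was at 14.5, 19.0, 19.6, 18.5 and 16.2 CPM in young untreated and 10.6, 14.6, 15.7, 14.8 and 11.1 CPM in young LPS cultures. In aged cells it was at 12.3, 18.9, 17.7, 13.5 and 12.2 CPM untreated and 10.0, 8.00, 12.4, 9.29 and 8.32 CPM with LPS. The groups overlapped at both ages, yet the LPS culture was the lower of its batch in 5 of 5 pairs at each age. Fitted log2 fold changes were -0.39, SE 0.14, adjusted p = 0.0218 in young and -0.63, SE 0.15, adjusted p = 0.00103 in aged cells. The young call was lost without young LPS replicate 1 or 5 or young untreated replicate 3 (adjusted p = 0.0608, 0.0650 and 0.0559). The responses differed by -0.24 (95% interval -0.65 to 0.16, adjusted p = 0.594).

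Smurf2, the ubiquitin ligase that Smad7 brings to the receptor, fell slightly in young cells, from a range of 38.2 to 47.8 CPM to 34.8 to 41.1 CPM (-0.16, SE 0.06, adjusted p = 0.0271). The call was lost with DESeq2 (0.0561), with only the compared groups in the fit (0.0598) and without young LPS replicate 3 or 4 or young untreated replicate 1 or 2 (adjusted p = 0.0516, 0.0874, 0.0969 and 0.0601). In aged cells the ranges were 36.7 to 41.7 CPM and 34.8 to 37.9 CPM, and the log2 fold change was -0.12, SE 0.06, adjusted p = 0.0910, called under total counts (-0.28, adjusted p = 1.84e-04). The exons of Smurf2 share 58 bases with Gm27322 on the same strand, which held at most 3 counts per library against at least 416 for Smurf2.

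The related co-repressors behaved differently from each other. Ski was at 121, 113, 110, 102 and 92.1 CPM in young untreated and 59.8, 54.8, 58.3, 69.8 and 58.4 CPM in young LPS cultures. In aged cells it was at 90.9, 99.1, 102, 94.4 and 87.7 CPM untreated and 75.4, 72.5, 68.7, 71.8 and 68.4 CPM with LPS. No treated culture reached an untreated one of its age. LPS changed Ski by a log2 fold of -0.84, SE 0.07, adjusted p = 4.82e-10 in young and -0.41, SE 0.07, adjusted p = 2.82e-05 in aged cells. The difference between the responses, 0.42, SE 0.10, adjusted p = 0.0106, had the same sign in 5 of 5 batches (0.14 to 0.75) and was called in all 20 fits with 1 library left out, with values of 0.38 to 0.48.

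Skil was at 110, 119, 100, 100 and 84.9 CPM in young untreated and 151, 137, 120, 95.1 and 89.2 CPM in young LPS cultures, and at 59.8, 93.4, 97.0, 73.2 and 73.2 CPM and 64.5, 91.6, 110, 83.5 and 67.8 CPM in the aged ones. The cultures of 1 group were spread widely and treated and untreated ones overlapped. The log2 fold change with LPS was 0.20, SE 0.16, adjusted p = 0.261 in young and 0.07, SE 0.16, adjusted p = 0.729 in aged cells. Both had the opposite sign under total counts (-0.02 and -0.09), again uncalled.

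**Figure D4:**
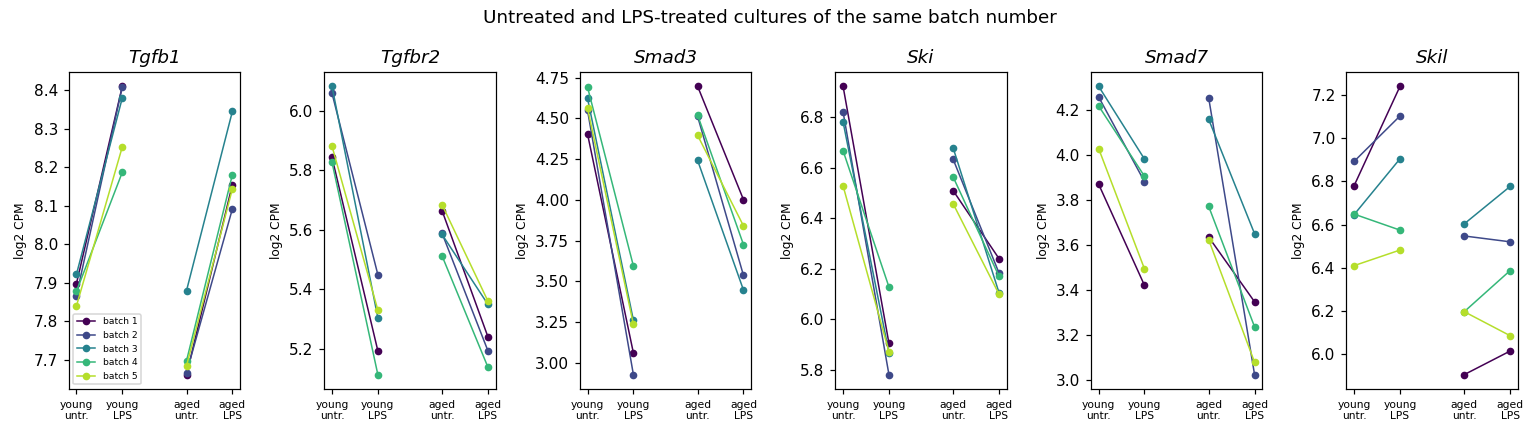
Log2 CPM of 6 members in untreated and LPS-treated cultures joined by batch number (lines), at each age. For Tgfbr2, Smad3, Ski and Smad7 all 10 lines fall, for Tgfb1 all 10 rise, and for Skil 7 of the 10 rise.

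The next question was how the aged state altered the pathway at rest. Both receptor genes were lower in aged untreated cultures, and no other member was called. Tgfbr2 was 0.792 times and Tgfbr1 0.857 times its level in young cells. The 2 members called, none higher and both lower, stand beside 11.5% of all genes tested, 3.71% called higher and 7.81% lower. The median log2 fold change over all 10 members was -0.17, against -0.01 for all genes tested.

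Tgfbr2 averaged 61.4 ± 5.29 CPM in young and 48.6 ± 2.33 CPM in aged untreated cultures (SD, n = 5), without overlap (-0.34, SE 0.07, adjusted p = 0.00201). The lowest young culture stood at 56.6 and the highest aged one at 51.3 CPM. Tgfbr1 averaged 45.7 ± 2.86 and 39.1 ± 3.38 CPM (-0.22, SE 0.06, adjusted p = 0.0287), and its groups were separated by less than 1 CPM. The Tgfbr1 call was lost with no filter (adjusted p = 0.0699), with only the compared groups in the fit (0.0502) and without aged untreated replicate 1 or 4 or young untreated replicate 1 or 2 (adjusted p = 0.0797, 0.0912, 0.0514 and 0.0989). Within batches both receptor genes were lower in the aged culture in 5 of 5 pairs. Of the 8 myeloid markers 4 were also called lower in aged untreated cultures and none higher: Aif1 (-1.15, adjusted p = 2.21e-04), Fcgr3 (-0.73, adjusted p = 0.00325), Csf1r (-0.44, adjusted p = 0.0132) and Spi1 (-0.18, adjusted p = 0.0312). Under LPS 6 of the 8 were called lower in aged cells and 0 higher. Over all genes tested 7.81% were called lower at rest and 15.0% under LPS. The part of these markers in the result was not tested.

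Tgfb1 was also lower in the aged culture of every batch, with means of 236 ± 5.04 and 211 ± 13.9 CPM. Its log2 fold change of -0.16, SE 0.05, adjusted p = 0.0614, was not called, but it was with the batch as a block (adjusted p = 0.0169). It was called, too, without aged untreated replicate 3 (-0.20, adjusted p = 0.0157), the only aged culture inside the young range, without aged LPS replicate 3 (adjusted p = 0.0374) and without young LPS replicate 4 (0.0455). The paper reports the opposite direction by RT-qPCR, with Tgfb significantly higher in aged BV-2 microglia than in controls. Its main text does not name the isoform, and the reason for the difference was not tested. Skil averaged 103 ± 12.6 and 79.3 ± 15.5 CPM (-0.37, SE 0.16, adjusted p = 0.131) and was called only with the block (adjusted p = 0.0429). With the block 4 members were therefore lower. Ski averaged 108 ± 11.1 and 94.9 ± 5.92 CPM (-0.18, SE 0.07, adjusted p = 0.0930) and was called without young untreated replicate 5 (-0.23, adjusted p = 0.0250). The SMAD genes were not called: the log2 fold change was -0.02 for Smad2, -0.09 for Smad3, 0.00 for Smad4 and -0.24 for Smad7. Their 95% intervals ran from -0.12 to 0.07, -0.30 to 0.12, -0.11 to 0.11 and -0.51 to 0.04.

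Between aged and young cultures that had both received LPS, other members differed. Smad3 and Ski were higher and Smad7 and Skil lower in aged cells, and the receptor genes were not called. The 4 members called stand beside 29.0% of all genes tested, and 2 in each direction beside 14.0% called higher and 15.0% lower. As a median log2 fold change the members gave -0.06 (0.03 under total counts) and all genes 0.0085 (0.09 under total counts). These groups also enter the LPS responses, so the calls are not independent of those above.

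Smad3 averaged 9.27 ± 1.70 CPM in young and 13.1 ± 2.06 CPM in aged LPS cultures (0.49, SE 0.12, adjusted p = 0.00436), and Ski 60.2 ± 5.67 and 71.4 ± 2.90 CPM (0.24, SE 0.07, adjusted p = 0.0118). Both were higher in the aged culture in 5 of 5 batches, although 1 young Ski value of 69.8 CPM lay inside the aged range. Smad7 averaged 13.4 ± 2.33 and 9.61 ± 1.76 CPM (-0.48, SE 0.15, adjusted p = 0.0213). Its call was lost without aged LPS replicate 2 or 5 or young LPS replicate 2 or 3 (adjusted p = 0.0612, 0.0557, 0.0541 and 0.0682). Skil averaged 118 ± 26.5 and 83.4 ± 18.4 CPM (-0.50, SE 0.16, adjusted p = 0.0184), and its call was lost without aged LPS replicate 1 or 5 or young LPS replicate 1 or 2 (adjusted p = 0.0583, 0.0535, 0.0594 and 0.0574). Without aged LPS replicate 5 or young LPS replicate 2 the members called were 2. Smad7 and Skil were lower in the aged culture in 5 of 5 batches, with overlapping groups.

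Tgfb1 averaged 322 ± 22.3 and 291 ± 20.0 CPM (-0.14, SE 0.05, adjusted p = 0.0515) and crossed the threshold with the batch as a block (adjusted p = 0.0161) and with DESeq2 (0.0322), DESeq2 size factors (0.0368) or a minimum of 10 counts in every library (0.0425). It also did so without aged LPS replicate 3, aged untreated replicate 3, young LPS replicate 4 or young LPS replicate 5 (adjusted p = 0.00989, 0.0336, 0.0168 and 0.0398). Tgfbr1 and Tgfbr2, the genes that differed at rest, stood at -0.03 (95% interval -0.16 to 0.10) and -0.02 (-0.16 to 0.11). Smad2, Smad4 and Smurf2 had log2 fold changes of -0.10, 0.04 and -0.08 and were not called.

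Around the 10 members, 128 other genes of the pathway were examined by role, of which 85 were expressed enough to be tested. With LPS, 67 were called in young cells, 28 higher and 39 lower, and 61 in aged cells, 28 higher and 33 lower. Between aged and young cells 18 were called at rest, 3 higher and 15 lower, and 42 under LPS, 14 higher and 28 lower. These are 78.8%, 71.8%, 21.2% and 49.4% of the pathway genes tested, beside 64.6%, 54.4%, 11.5% and 29.0% of all genes tested. The median log2 fold changes of the pathway genes were -0.15, -0.08, -0.08 and -0.08 in that order, beside -0.01, 0.0005, -0.01 and 0.0085 over all genes. Under total counts LPS called 17 higher and 48 lower in young and 18 higher and 43 lower in aged cells, and the LPS-treated ages differed by 18 higher and 21 lower. Over all 12799 genes tested, that scaling called 2407 higher and 6401 lower, 2172 and 5476, and 3167 and 1353 in that order. For the difference of the LPS responses it called 881 higher and 203 lower. The LPS response differed between the ages for 6 genes, 3 higher and 3 lower (5 higher and 3 lower under total counts, 2 and 3 with DESeq2 size factors). These 6 are 7.06% of the pathway genes tested, beside 6.39% of all genes tested. The count was 11 without aged LPS replicate 3 and 3 without aged LPS replicate 4 or young LPS replicate 2 or 3.

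Few genes of ligand activation were expressed: 3 of 14 were tested. Furin, the protease that cleaves the TGF-beta precursor, averaged 78.1 ± 2.00 CPM in young untreated and 126 ± 12.6 CPM in young LPS cultures, and 76.2 ± 4.15 and 92.9 ± 12.7 CPM in aged ones. It rose with LPS by 0.69 in young and 0.29 in aged cells on the log2 scale (adjusted p = 4.62e-08 and 0.00306). The aged rise was not called under total counts (0.12, adjusted p = 0.149). Itgav, an integrin chain used to release latent TGF-beta, fell by 0.59 and 0.78 (adjusted p = 0.00688 and 9.28e-04). Furin (-0.44, SE 0.08, adjusted p = 1.50e-04) and Nrros, which tethers latent TGF-beta1 on microglia (-0.26, SE 0.05, adjusted p = 8.19e-04), were lower in aged than young LPS cultures.

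Among receptors and co-receptors 12 of 15 were tested, and LPS called 3 higher and 5 lower in young and 3 higher and 7 lower in aged cells, or 1 and 7 in young and 2 and 8 in aged cells under total counts. The TMM calls are 66.7% and 83.3% of the 12, beside 64.6% and 54.4% of all genes tested. Bambi, a decoy receptor without kinase, fell most, from 29.8 ± 1.92 to 7.74 ± 0.780 CPM in young and from 30.9 ± 2.38 to 8.22 ± 1.81 CPM in aged cells. Its log2 fold changes were -1.94, SE 0.11, adjusted p = 4.71e-13 and -1.91, SE 0.11, adjusted p = 8.34e-13. Acvr2b, an activin type II receptor, fell by 1.51 in young and 0.91 in aged cells (adjusted p = 6.27e-09 and 7.76e-06). The co-receptor gene Eng also fell, by 0.92 and 0.82 (adjusted p = 5.87e-04 and 0.00159), at 13 to 75 counts per library, and 61 bases of its exons overlap Fpgs on the other strand. Acvrl1, the type I receptor ALK1, was the receptor gene of this list called at rest with age: it averaged 33.8 ± 2.81 CPM in young and 24.9 ± 2.33 CPM in aged untreated cultures (-0.44, SE 0.09, adjusted p = 0.00278). That 1 call is 8.33% of the 12, beside 11.5% of all genes. Under LPS 3 higher and 3 lower were called between the ages, 50% of the 12 beside 29.0% of all genes. Acvrl1 was lower in aged cells by 0.67 (adjusted p = 1.32e-05) and Nrp1 by 0.55 (adjusted p = 9.67e-04), and Acvr2b was higher (0.62, SE 0.16, adjusted p = 0.00503).

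Of the other SMADs and their adaptors, 8 of 9 genes were tested and all 8 were called in the young LPS response, 2 higher and 6 lower. In aged cells 6 were called, 2 higher and 4 lower. As shares of the 8 these are 100% and 75%, beside 64.6% and 54.4% of all genes tested. The anchor gene Zfyve9 (SARA), which presents SMADs to the receptor, fell by 0.88 in young cells (adjusted p = 2.26e-08), and Dab2 by 0.87 and 0.86 in young and aged cells (adjusted p = 1.79e-07 and 3.36e-07). The endosomal adaptor Zfyve16 rose by 0.83 and 0.71 (adjusted p = 5.30e-10 and 1.19e-08). Hgs, an endosomal adaptor most of whose exon bases a second entry of the same name covers, rose in aged cells by 0.58 (adjusted p = 1.50e-06). Between the LPS-treated ages 3 higher and 1 lower were called (3 and 0 under total counts, 2 and 2 with DESeq2 size factors). Under TMM this is 50% of the 8, beside 29.0% of all genes. Zfyve9 (0.38, SE 0.10, adjusted p = 0.00458) and Smad1, which serves BMP receptors (0.34, SE 0.09, adjusted p = 0.00516), were higher in aged cells. Hgs was lower (-0.23, SE 0.08, adjusted p = 0.0289), a call lost under total counts (adjusted p = 0.159) and on leaving out any of 6 of the LPS libraries (adjusted p up to 0.0807).

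The ubiquitin ligases, deubiquitinases and the phosphatase were mostly called higher with LPS under TMM. Under total counts, of 11 tested genes of 13, 3 were called higher and 3 lower at each age. Under TMM 8 higher and 1 lower were called in young and 7 higher and 1 lower in aged cells. The medians were 0.22 and 0.20, beside -0.01 and 0.0005 over all genes. Under total counts they were -0.0022 and 0.04, beside -0.23 and -0.16 over all genes. The median of the list thus lay above that of all genes under both scalings. The TMM calls are 81.8% and 72.7% of the 11, beside 64.6% and 54.4% of all genes, of which 31.2% and 27.5% were higher. Smurf1, the paralogue of Smurf2, averaged 31.2 ± 1.96 CPM in young untreated and 54.6 ± 4.37 CPM in young LPS cultures (0.81, SE 0.07, adjusted p = 6.65e-10), and in aged cells it rose by 0.88 (adjusted p = 2.76e-10). Nedd4l rose by 0.87 and 0.81 (adjusted p = 4.16e-11 and 3.18e-10). Wwp1 was the ligase that fell, by 0.90 and 0.64 (adjusted p = 3.11e-12 and 2.16e-09). At rest 1 higher and 3 lower of this list were called in aged cells, 36.4% of the 11 beside 11.5% of all genes. Nedd4l (-0.23, SE 0.06, adjusted p = 0.0225) and Wwp1 (-0.21, SE 0.05, adjusted p = 0.0140) were lower, and Usp15, a deubiquitinase of the receptor, was higher (0.17, SE 0.04, adjusted p = 0.00598). With no filter the calls of Nedd4l and Wwp1 were lost (adjusted p = 0.0557 and 0.0519), and that of Nedd4l also without aged untreated replicate 4 or young untreated replicate 3 (adjusted p = 0.0648 and 0.0752). Between the LPS-treated ages 1 higher and 2 lower were called (2 and 1 under total counts), 27.3% of the 11 beside 29.0% of all genes. Nedd4l was again lower (-0.29, SE 0.06, adjusted p = 0.00110). The ligase gene Rnf111 (-0.13, SE 0.05, adjusted p = 0.0377) and the phosphatase gene Ppm1a (0.13, SE 0.05, adjusted p = 0.0389) lay close to the threshold, and their calls were lost on leaving out any of 9 and any of 6 libraries (adjusted p up to 0.110 and 0.128).

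All 14 nuclear partners were tested, and LPS called 5 higher and 6 lower in young and 6 higher and 4 lower in aged cells, or 3 and 8 in young and 4 and 7 in aged cells under total counts. The TMM calls are 78.6% and 71.4% of the 14, beside 64.6% and 54.4% of all genes tested. The related co-repressors Tgif1 and Tgif2 parted: Tgif1 rose by 0.78 and 0.66 (adjusted p = 5.53e-10 and 1.95e-08), and Tgif2 fell by 1.28 and 0.82 (adjusted p = 6.65e-12 and 6.95e-09). Most of the Tgif2 exons overlap an antisense transcript, 5430405H02Rik, with 33 to 82 counts per library against 67 to 452 for Tgif2. Runx2 fell by 1.48 and 0.99 (adjusted p = 1.28e-09 and 5.04e-07). Foxh1, a SMAD-binding factor, held 0 to 2 counts per library in young untreated and 0 in aged untreated cultures, against 11 to 28 and 3 to 35 counts with LPS. At rest 1 higher and 3 lower were called in aged cells: Runx1 (-0.34, SE 0.06, adjusted p = 5.64e-04) and the acetyltransferase gene Ep300 (-0.24, SE 0.05, adjusted p = 0.00544) were lower and Tgif2 was higher (0.33, SE 0.07, adjusted p = 0.00544). With LPS 4 higher and 3 lower were called between the ages (5 and 2 under total counts). The shares of the 14 were 28.6% at rest and 50% with LPS, beside 11.5% and 29.0% of all genes. Tgif2 (0.80, SE 0.09, adjusted p = 7.55e-07) and Runx2 (0.64, SE 0.14, adjusted p = 0.00115) were higher and Tgif1 lower (-0.34, SE 0.07, adjusted p = 3.78e-04) in aged cells.

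Known target genes of TGF-beta did not share a direction with LPS: of 12 tested genes of 19, 5 higher and 5 lower were called in young and 5 higher and 3 lower in aged cells. As shares of the 12 these are 83.3% and 66.7%, beside 64.6% and 54.4% of all genes tested. The cell cycle inhibitor genes Cdkn2b and Cdkn1a rose by 3.19 and 2.66 in young cells (adjusted p = 1.84e-09 and 3.65e-13), and Cdkn2b by 1.90 in aged cells (adjusted p = 1.97e-05). Between aged and young LPS cultures 1 higher and 8 lower were called (2 and 7 under total counts), with a median of -0.51 beside 0.0085 over all genes. Under TMM this is 75% of the 12, beside 29.0% of all genes. Cdkn2b was lower in aged LPS cultures (-1.27, SE 0.24, adjusted p = 3.76e-04). Tgfbi, a secreted matrix protein gene, held 2 to 6 counts per library in young and 0 to 2 in aged LPS cultures, against 8 to 28 and 8 to 10 untreated. At rest 1 target was called (8.33% of the 12, beside 11.5% of all genes), Spsb1 (-1.39, SE 0.36, adjusted p = 0.0146), at 4 to 44 counts per library.

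Microglial genes known to depend on TGF-beta were mostly lower with LPS and with age. Of 13 tested genes of 18, LPS called 1 higher and 10 lower in young and 1 higher and 8 lower in aged cells, with medians of -1.32 and -0.95. Over all genes tested 33.5% and 26.9% were called lower, and the medians were -0.01 and 0.0005. Mertk, a receptor for the clearance of dying cells, fell from 79.3 ± 3.44 to 15.1 ± 2.71 CPM in young and from 58.3 ± 4.42 to 10.6 ± 1.72 CPM in aged cells. Its log2 fold changes were -2.39, SE 0.10, adjusted p = 2.89e-15 and -2.46, SE 0.10, adjusted p = 6.46e-15. Tmem119, a microglial surface marker, fell by 2.97 and 2.37 (adjusted p = 5.88e-12 and 1.37e-10). P2ry12 was near the limit of detection, with 6 to 31 and 9 to 18 counts per library untreated and 0 to 6 and 0 to 2 with LPS in young and aged cells.

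At rest 0 higher and 7 lower of the same list were called with age, with a median of -0.50, and under LPS 1 higher and 7 lower (7 called with DESeq2 size factors, each of them lower), with a median of -0.41, or -0.38 with P2ry12 set to its floor of 3 counts in aged LPS cultures. Over all genes 7.81% were called lower at rest and 15.0% under LPS, with medians of -0.01 and 0.0085. Olfml3, a secreted microglial marker, averaged 16.9 ± 2.29 CPM in young and 10.7 ± 0.990 CPM in aged untreated cultures (-0.66, SE 0.13, adjusted p = 0.00142). Fcrls held 15 to 26 and 2 to 12 counts per library (-1.42, SE 0.30, adjusted p = 0.00363). P2ry13, a purinergic receptor gene, was lower by 0.99 (adjusted p = 0.0228), a call lost without aged untreated replicate 3 or 4 or young untreated replicate 2 or 3 (adjusted p = 0.0530, 0.0736, 0.0765 and 0.0693). C1qa, a complement gene, was lower by 0.82 (adjusted p = 0.0385), lost with DESeq2 (0.0761) and on leaving out any of 7 untreated libraries (adjusted p up to 0.116), and among the untreated libraries kept only without aged untreated replicate 3 or young untreated replicate 2 or 3. Under LPS, P2ry13 (-1.53, SE 0.43, adjusted p = 0.0102) and Olfml3 (-0.76, SE 0.14, adjusted p = 3.45e-04) were lower and Tmem119 higher (0.62, SE 0.23, adjusted p = 0.0459) in aged cells, the last a call lost with DESeq2 size factors (adjusted p = 0.0523) and on leaving out any of 14 libraries (adjusted p up to 0.145). The summed level of microglial identity markers, some of which this list shares, also moved with these groups (values above), as did single myeloid markers between the ages, and their part in the result was not tested.

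**Figure D5:**
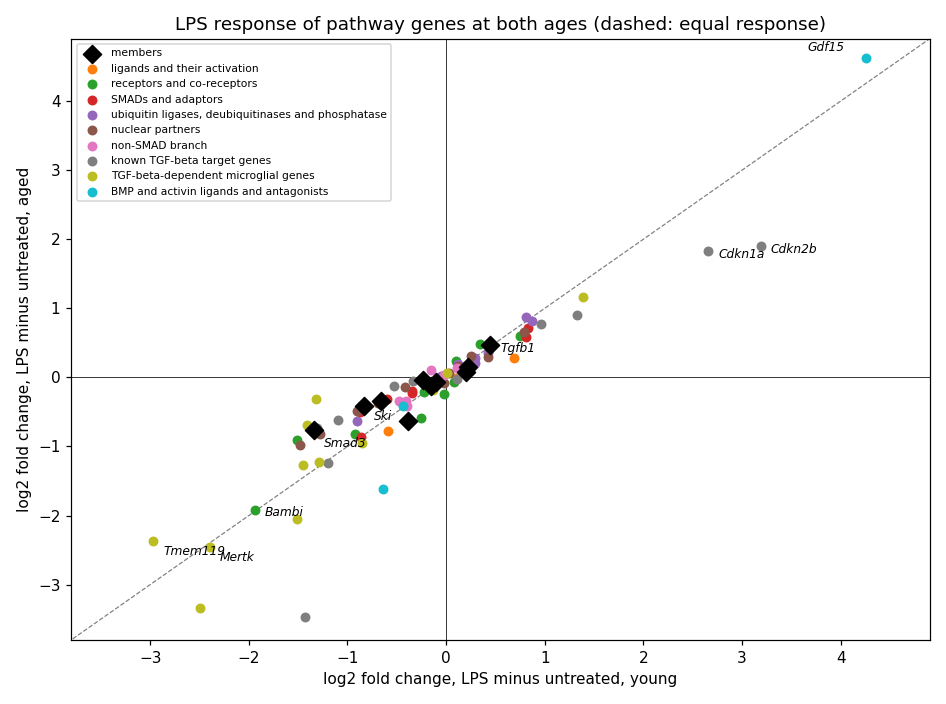
Log2 fold change with LPS in young (x axis) and aged cells (y axis) for the members (black diamonds) and the other tested pathway genes, coloured by list, without Foxh1 and 1 target gene. Cdkn1a lies at 2.66 and 1.83, and Smad3 at -1.34 and -0.76, both nearer to 0 on the aged axis.

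Some genes outside the pathway followed single members closely across the 20 libraries, as Pearson correlations of log2 CPM over points that share the 4 groups and the batches. Tgfb1 was most like Pdgfb (r = 0.983), Slc7a8 (0.982) and Slc31a2 (0.981). Smad3 was most like Rxra (0.986), Kif21b (0.986) and Dock3 (0.984). Tgfbr1 had weaker neighbours, Akap10 (0.876), Setd3 (0.818) and Adcy9 (0.809), and those of Skil were Nfya (0.929), Ecm1 (0.913) and Csf2rb2 (0.912). These are descriptions of the most similar of 12799 genes.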

How the data were processed

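RNA was sequenced from 20 BV-2 cultures, 5 in each of 4 groups. The authors made stranded poly(A) libraries with an Illumina kit, sequenced them on a NextSeq 2000, aligned reads to GRCm38 with STAR and deposited raw counts per Ensembl gene from featureCounts. The submitters' processing notes name STAR 2.6.1d, featureCounts 1.5.1 and FastQC 0.11.8. How strand, multiple alignments and overlaps were handled is not given in the sources used here, so genes that overlap others are uncertain. Totals per library ranged from 11371508 to 16829292 counts. A floor of 3 counts per library corresponds to 0.178 to 0.264 CPM and covers counting error only.

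Groups, replicate and batch numbers came from the labels. Counts of all 20 libraries were fitted in R 4.3.3 with edgeR 4.0.16 (quasi-likelihood F-test), with group as the factor, TMM scaling and filterByExpr, which kept 12799 genes. Benjamini-Hochberg adjustment ran across these genes, and an adjusted p below 0.05 is a call. CPM and RPKM are on TMM-scaled library sizes, the log2 scale had a prior count of 2, and exon lengths came from GENCODE release M21. The 95% intervals are the log2 fold change ± 1.96 SE, a normal approximation. They can be narrower than the F-test implies, so an interval that leaves out 0 is not a call. The fit was tested on simulated data: for the untreated age comparison with 12648 genes, 188 of 200 genes changed 2-fold were called, with 10 false calls, and for the difference of LPS responses 323 of 400, with 13 false calls. The simulated libraries were drawn independently, with no batch effect and no change other than the planted 2-fold ones. These rates therefore do not cover smaller changes or libraries that share a batch.

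The replicate number is the batch number in the labels, so numbers pair the libraries across groups. Deviations from the group means of same-numbered libraries correlated on average by 0.146 over 30 pairs, against -0.0358 for other numbers. Between untreated and LPS libraries of 1 age the average was 0.276 in young and 0.260 in aged cells. Between the ages it was weaker, at 0.111 untreated (-0.084 to 0.253) and 0.042 with LPS (-0.214 to 0.275). Alternatives were a batch block, DESeq2 1.42.0, DESeq2 size factors, total counts, no filter, a minimum of 10 counts in every library, the compared groups alone and leaving out each library.

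The members and lists were chosen with earlier results of these data known. Besides the 10 members, the text names called genes with the 3 largest changes per list and comparison, and the 3 genes most like Tgfb1, Tgfbr1, Smad3 and Skil. For 1 target gene, counted within its list, values are not reported here. Promoters came from RefSeq (GRCm38.p6), where 6 of the 10 members were found. The labels do not say how the cultures of a group were separated, so p-values measure the spread between these libraries, which may be partly technical.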

Additional observations from a re-analysis of the deposited data

Results flagged for a closer look

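In 3 of 40 groups of 5 libraries, 1 library lay apart from the others of its group by Dixon's test; chance alone gives about 1 in 20. Tgfb1 stood at 235.5 CPM in aged untreated replicate 3, above the other aged untreated cultures. Tgfbr1 stood at 50.6 CPM in young untreated replicate 2, above its group, and Smad4 at 56.4 CPM in young untreated replicate 3, below its group.

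The LPS response differed between aged and young cells, by edgeR's test of the interaction, for 2 members and 6 other pathway genes. Those are 20% of the members and 7.06% of the other pathway genes tested, beside 6.39% of all genes tested. The difference (aged minus young, log2) was 0.58 for Smad3 and 0.42 for Ski. It was 0.47 for Tgif2 (adjusted p = 0.0155), 0.42 for the co-repressor Sin3a (adjusted p = 0.00134) and -0.83 for Cdkn1a (adjusted p = 0.0162), each called in all 20 fits with 1 library left out. Sin3a fell by 0.90 in young and 0.49 in aged cells, and Cdkn1a rose by 2.66 and 1.83. For Furin the difference was -0.40 (adjusted p = 0.0265), a call lost without aged LPS replicate 2 or 4, aged untreated replicate 4 or young LPS replicate 2 or 3 (adjusted p up to 0.0591). For Junb, an immediate-early target gene whose exons share 173 bases with Prdx2 on the other strand, it was -0.43 (adjusted p = 0.0285), lost without aged LPS replicate 1, 4 or 5, aged untreated replicate 2, young LPS replicate 2 or 3 or young untreated replicate 2 (adjusted p up to 0.0648). For Wwp1 it was 0.27 (adjusted p = 0.0481), held only without aged LPS replicate 1 or 5, young LPS replicate 1 or young untreated replicate 1 or 5, and without any other library the adjusted p reached up to 0.104.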

How the results depend on the processing

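Of 1340 alternative values of the members, 1253 kept their direction and their side of the threshold. With the replicate block 4 members were called between untreated ages in place of 2, and 1 with no filter or with only the compared groups. Leaving out 1 library gave 1 to 3 members at rest, 2 to 5 between LPS-treated ages, 7 to 8 in the young and 6 in the aged LPS response and 1 to 3 for the difference of responses. For the other pathway genes it gave 14 to 19, 31 to 42, 62 to 69, 55 to 61 and 3 to 11. The block changed the calls of Tgfb1 in both age comparisons, of Skil at rest and of Tgfbr2 in the difference of responses, and no other call of a member. Some signs turned. Under total counts the value was 0.0484 for Tgfbr1, 0.0567 for Tgfbr2 and 0.0024 for Smurf2 between LPS-treated ages, -0.0132 for Smad2 in the aged LPS response, and -0.0199 and -0.0886 for Skil in the young and aged LPS responses. The difference of responses of Tgfb1 was -0.0013 with DESeq2 and -0.0042 with its size factors. With 1 library left out, the difference of responses ran from -0.0268 to 0.0593 for Tgfb1, -0.0106 to 0.0788 for Smad4 and -0.0076 to 0.0724 for Smurf2. Between LPS-treated ages Tgfbr2 ran from -0.0637 to 0.021 and Smad4 from -0.008 to 0.0816. At rest Smad2 ran from -0.0428 to 0.0016 and Smad4 from -0.035 to 0.0232, and in the aged LPS response Skil ran from -0.0478 to 0.1543. The cause was not tested. Counts of Smad3 (83 to 415 per library) and Smad7 (97 to 325) were the lowest of the members and limit their precision.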

Other observations

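The SMAD-independent branch of TGF-beta signalling, through TAK1 and its partners, was tested in all 9 of its listed genes. LPS called 2 higher and 4 lower in young and 2 higher and 3 lower in aged cells, with 6 and 4 called under total counts, each of them lower. The TMM calls are 66.7% and 55.6% of the 9, close to the 64.6% and 54.4% of all genes tested. Tab1, a partner of TAK1, fell by 0.40 and 0.42 on the log2 scale (adjusted p = 3.31e-04 and 2.83e-04), and the stress kinase gene Mapk14 (p38 alpha) by 0.41 and 0.33 (adjusted p = 9.43e-05 and 9.49e-04). Pard6a, a polarity protein gene, fell by 0.48 and 0.34 (adjusted p = 0.00208 and 0.0235), the aged call being lost without aged LPS replicate 2 or 4 or aged untreated replicate 1 or 5 (adjusted p up to 0.0869). Between the LPS-treated ages 1 higher and 2 lower were called (2 and 1 under total counts, and 2 with DESeq2 size factors, both lower). Under TMM this is 33.3% of the 9, beside 29.0% of all genes. Tab2 was lower in aged cells (-0.25, SE 0.05, adjusted p = 0.00109). Traf6, an adaptor that activates TAK1 (0.21, SE 0.07, adjusted p = 0.0380), and the GTPase gene Rhoa (-0.11, SE 0.04, adjusted p = 0.0399) lay close to the threshold, and their calls were lost on leaving out any of 6 and any of 7 libraries (adjusted p up to 0.123 and 0.112).

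Most ligands and antagonists of the BMP and activin side were not expressed: 3 of 17 genes were tested and 10 had no count in any library. Gdf15, a stress-induced cytokine of the TGF-beta superfamily, averaged 3.49 ± 1.87 CPM in young untreated and 66.0 ± 19.2 CPM in young LPS cultures, and 2.41 ± 1.09 and 58.8 ± 27.5 CPM in aged ones (SD, n = 5). Its log2 fold change was 4.26, SE 0.34, adjusted p = 1.95e-10 in young and 4.62, SE 0.36, adjusted p = 2.04e-10 in aged cells. Gdf11, a related ligand gene, was higher in aged than young untreated cultures, at 23 to 39 against 2 to 10 counts per library (1.83, SE 0.29, adjusted p = 3.09e-04), and fell with LPS in aged cells (-1.61, SE 0.29, adjusted p = 6.97e-05). Twsg1, a BMP-binding protein gene, fell by 0.43 and 0.41 (adjusted p = 3.10e-04 and 7.42e-04).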
